A study of Mus musculus with 143 samples.

Results

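Isolated distal PolII enhancers are the captured regions that carry RNA polymerase II (PolII) and enhancer marks in their category name and stand alone in the captured set. They were chosen by category and position only: category Enh_K4me1_K27ac_PolII, no start of a captured Pro_K4me3_K27ac_PolII or TSS_Random region within 5000 bp, and no other captured Enh region starting within 12.5 kb. The rule found 3619 regions, which are 28.1% of the 12897 captured regions and 47.6% of the 7600 regions of that category. Each was 400 bp long, and 0 of them overlapped another captured region. The rule uses no reporter value.

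Of the 143 samples, all from mouse T cells at several stages or a T cell line, 3 libraries were used: 2 RNA replicates and 1 input library of capSTARR-seq in P5424, a mouse T cell line. The labels name no genotype, treatment or time for these libraries, so the groups differ only in being RNA or input. Total RNA stands as the molecule in the labels of every one of them, input included, and what the input was made from is not stated. Nor is it stated whether each replicate had its own culture, so the spread between them may be technical, and p-values measure only that spread.

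An enhancer is a stretch of DNA that raises transcription from a promoter, often from far away. H3K4me1 marks enhancers, H3K27ac marks those in use, and PolII found at an enhancer can transcribe it into short-lived enhancer RNA. The capSTARR-seq assay places genomic fragments, enriched by capture, inside the transcribed part of a reporter plasmid, so a fragment that acts as an enhancer raises its own level in RNA. The assay tests the fragment outside its chromosome, away from its neighbours and its native promoter. The category names are read here as marks, and the cells they were measured in are not stated for these tables.

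"Distal" and "isolated" hold for the captured set. Only 1600 captured promoter and TSS_Random starts enter the rule, and the regions were not set against a gene annotation, so a member may lie close to a promoter that was not captured. No gene is named for the same reason. The median distance to the nearest other captured Enh start was 38250 bp (quartiles 20900 and 84125, highest 5491200). The median distance to the nearest captured promoter start was 375451 bp (quartiles 121974 and 1051278, highest 9668751). Coordinates below are as the files give them, with mm9 the only genome build in the submitters' processing notes.

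Activity is given as fold over input, (RNA FPKM + 1)/(input FPKM + 1), where FPKM corrects the reads of a region for its length and for sequencing depth. Depth was read from the steps in the FPKM values. Median depth per member was 283 reads (RNA replicate 1), 307 (RNA replicate 2) and 270 (input), out of 2003240, 2126754 and 1636231 reads over all members. The lowest input was 14 reads. In RNA replicate 1, 53 members had 0 reads, as did 64 in replicate 2 and 22 in both. These 22 had between 14 and 83 input reads. Counting understates the error between replicates. Over the 3524 members with reads in both replicates, the variance of the log2 ratio between replicates was 21.5 times that of counting alone. The cause of this excess was not tested, and the values used here hold no molecular identifiers.

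Most isolated PolII enhancers, like most captured regions, were not above their input in the reporter. The median fold was 0.854 in replicate 1 and 0.863 in replicate 2, and 1820 members (50.3%) lay below their input in both, against 995 (27.5%) above it in both. All captured regions were much the same, with median folds of 0.852 and 0.862, 50.8% below input in both and 27.02% above. Regions of the captured Random category stood lower, with median folds of 0.657 and 0.679 and 72.4% below input in both. A fold of 1 is thus above the usual level of Random regions. A region was called active at a fold of at least 1.5 in both replicates. By this rule 340 of 3619 members were active, 9.39% (Wilson 95% interval 8.49 to 10.4), where 8.51% of all captured regions were. The interval narrowly includes the share of all regions. Wilson intervals here treat regions as independent and leave out the error between replicates.

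The active members ranged widely in strength. Taking the lower of the 2 folds, 188 lay from 1.5 to under 2, 109 from 2 to under 3, 31 from 3 to under 5 and 12 at 5 or more. Strong activity, a fold of at least 3 in both replicates, was thus seen in 43 members, 1.19% (0.883 to 1.60), beside a background of 0.985% over all regions. The authors' deposited active class was given to 178 members in replicate 1, 4.92% (4.26 to 5.67), with 4.21% of all regions. In replicate 2 it was given to 195, 5.39% (4.70 to 6.17), with 4.34% of all regions. Both intervals lie above the share of all regions. In both replicates together it was given to 115, 3.18% (2.65 to 3.801), an interval that includes the 2.70% of all regions. All 115 were among the 340, and all 43 strong members were among the 115. The lowest fold given the class among members was 2.13 in replicate 1 and 2.18 in replicate 2, above 1.5 and below 3. This nesting is thus not independent agreement.

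Single replicates called more members than both together. Replicate 1 reached 1.5 in 526 members, 14.5% (13.4 to 15.7), an interval that includes the 13.6% of all regions. Replicate 2 did so in 585, 16.2% (15.0 to 17.4), an interval above the 14.6% of all regions. Of the members that passed, 186 did in replicate 1 only and 245 in replicate 2 only, in sum 431 members. In exactly 1 replicate 11.1% of all regions passed, and 11.9% of members did. Few members were strong in 1 replicate and inactive in the other. A fold of at least 3 in replicate 1 and under 1.5 in replicate 2 was seen in 5, and the opposite in 4. Disagreement at any level was more common: of the 3524 members with reads in both, 16.1% differed over 2-fold between replicates. The log2 folds of the replicates had a Spearman rho of 0.642 over the 3619 members, beside 0.641 over all regions and 0.497 over Random. Both folds divide by the same input, which by itself raises these values.

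**Figure D1:**
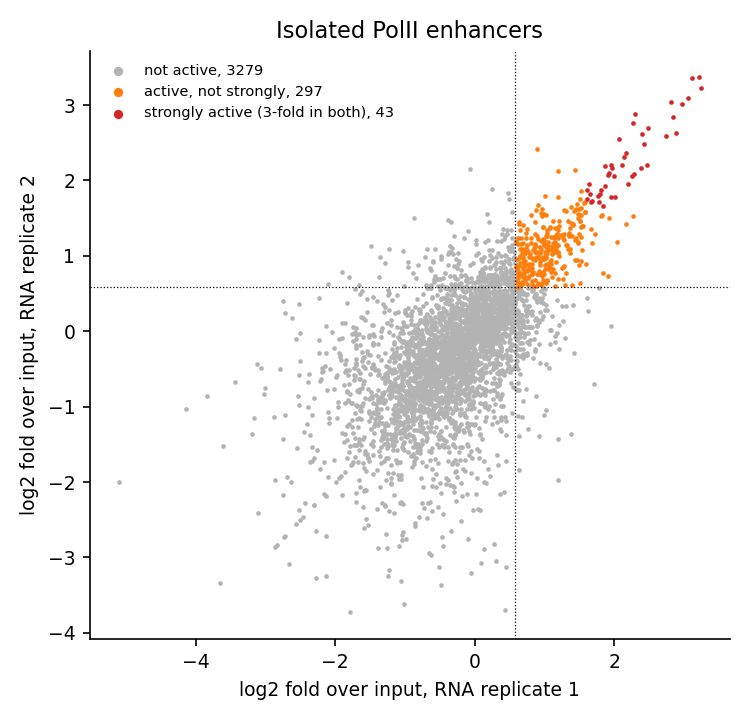
Log2 fold over input in RNA replicate 1 (x axis) and RNA replicate 2 (y axis), 1 point per isolated PolII enhancer, with dotted lines at 1.5-fold. The 43 strongly active members run close to the diagonal in the upper right, and the 297 other active members fill the space between them and the dotted lines.

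The 12 members of highest mean log2 fold lay on 9 chromosomes, and all 12 had the authors' deposited active class in both replicates. At such folds the class is no independent evidence. In each the lower of the replicates stood above 4-fold, and folds ran from 4.81 to 10.3. Their input ran from 44 to 635 reads. Values below are RNA FPKM in replicates 1 and 2, then input FPKM, then the mean log2 fold ± SD over n = 2 replicates, which does not cover error in the common input.

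The highest was chr17:52421625-52422024, with 217 and 240 RNA FPKM over 22.4 in the input, a mean log2 fold of 3.29 ± 0.10. The region chr6:134916675-134917074 had 36.3 and 43.3 over 3.32, or 3.24 ± 0.18. The region chr15:95587675-95588074 had 69.7 and 68.9 over 6.49, or 3.23 ± 0.01. These 3 cannot be ranked against each other, since their means differ by less than the SD of the first. They differ in depth: the input held 297 reads of the chromosome 17 region, 44 of the chromosome 6 region and 86 of the chromosome 15 region, so the last 2 folds rest on few input reads.

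The region chr18:61036875-61037274 followed with 151 and 154 RNA FPKM over 17.1, a mean log2 fold of 3.08 ± 0.02. The region chr8:114119725-114120124 had 186 and 193 over 23.0, or 2.99 ± 0.04. The region chr2:25321225-25321624 had 226 and 267 over 31.4, or 2.93 ± 0.17. In all 3 regions both folds were over 7, with 227 to 417 input reads behind them.

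The region chr1:52207525-52207924 had 350 and 351 RNA FPKM over 47.9, a mean log2 fold of 2.84 ± 0.0030. The region chr6:61276125-61276524 had 94.2 and 79.2 over 11.9, or 2.76 ± 0.17. The region chr16:55949050-55949449 had 315 and 284 over 46.3, or 2.67 ± 0.10. The chromosome 1 region had the most input of the 12, 635 reads, and its near-identical RNA values do not show that it was measured more precisely than the others, since 2 values give a poor estimate of spread.

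The last 3 were lower. The region chr16:46104475-46104874 had 120 and 140 RNA FPKM over 20.7, a mean log2 fold of 2.59 ± 0.15. The region chr2:3575050-3575449 had 56.1 and 85.0 over 10.6, or 2.59 ± 0.42. The region chr4:69992275-69992674 had 50.3 and 71.2 over 9.65, or 2.51 ± 0.35. The last pair had the highest SDs of the 12, with replicate 2 the higher in both. The chromosome 4 region was also among the 3 members farthest from any other captured Enh start, 4917050 bp away. None of the 12 lay within 25000 bp of a captured promoter start, but only 203 of all 3619 members did.

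**Figure D2:**
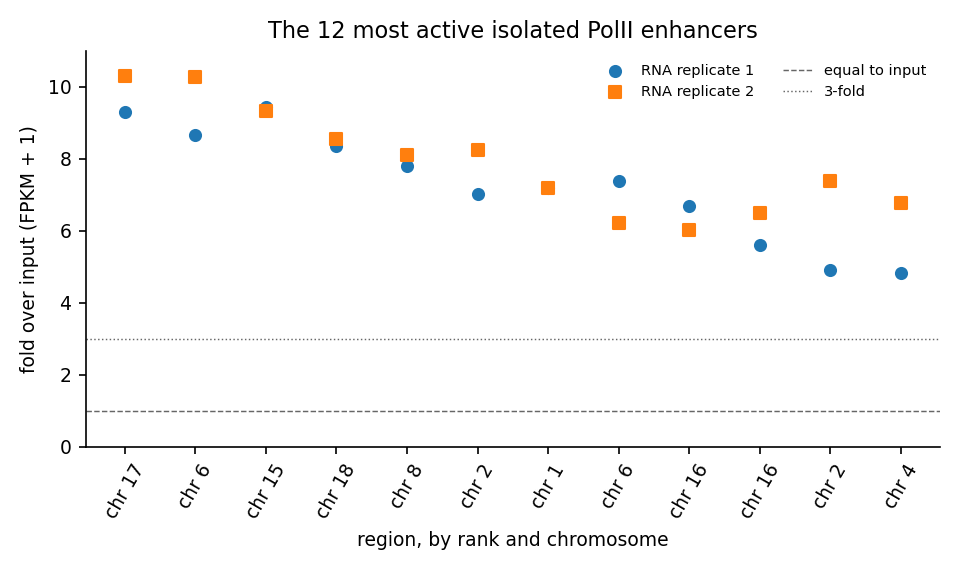
Fold over input on a linear axis from 0 in each RNA replicate for the 12 isolated PolII enhancers of highest mean log2 fold, in order of rank and labelled by chromosome. Every point lies above the 3-fold line, from 4.81 to 10.3.

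The other 31 strongly active members had mean log2 folds from 1.68 to 2.51. The 43 lay on 18 chromosomes, with a median of 297 input reads (39 to 7866), and 5 had under 100. Their median distance to the nearest captured Enh start was 47300 bp, beside 38250 bp for all members. Of the 43, 15 lay over 1000000 bp from any captured promoter start, as did 966 of all 3619 members.

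The 3 active members of most input were also named. The region chr11:3035775-3036174 had 4242 and 4305 RNA FPKM over 2444, folds of 1.74 and 1.76 on 32414 input reads. The region chr12:114197375-114197774 had 2063 and 2107 over 593, folds of 3.47 and 3.55 on 7866 reads. The region chr4:62254800-62255199 had 740 and 842 over 324, folds of 2.28 and 2.59 on 4302 reads. All 3 lay above 1.5 in both replicates, and only the chromosome 12 region was strongly active. The chromosome 11 region lacked the authors' deposited active class in both replicates, and the others had it in both.

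Each region was also tested with limma against the median of the Random category, whose fold was 0.657 in replicate 1 and 0.679 in replicate 2. Regions passed at an adjusted p under 0.05 (limma, Benjamini-Hochberg over all 12897 regions) and at least 1.5-fold from that median. The test called 847 members higher, 23.4% (22.1 to 24.8), with 24.0% of all regions called higher, and 153 members lower, 4.23% (3.62 to 4.93), with 3.99% of all regions called lower. Both shares are near the background. The test called 338 of the 340 active members and all 43 strong ones. The adjusted p of the 12 most active ran from 2.2e-05 to 0.00058 (limma, Benjamini-Hochberg). The test uses the same folds by which these members were picked, so its calls and p-values for them are not independent support. A further 509 members were called that did not reach 1.5 over their own input in both replicates, and of all 847 the median fold over input was 1.52 in replicate 1 and 1.58 in replicate 2.

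The Random category itself gave 6.49% of its 478 regions as higher and 8.79% as lower in the same test. These counts depended on the centre and on the variance model. Centred on the median of all regions, limma called 400 members higher (11.1%, with 11.4% of all regions) and 354 lower (9.78%, with 9.82%). Without centring it called 214 higher (5.91%, with 6.32%) and 458 lower (12.7%, with 12.9%). With no trend in the prior variance it called 449 higher (12.4%, with 11.6%) and 48 lower (1.33%, with 1.16%), and with a trend on the mean log2 fold it called none lower (301 lay below at an unadjusted p under 0.05 in the limma fit used). The single input library is shared by both ratios, and its error is not in these p-values.

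The 153 members called lower had median folds of 0.330 and 0.313, with a median of 440 input reads, and 11 of them had 0 RNA reads in both replicates. Among members with at least 100 input reads, chr9:21113525-21113924 had the lowest mean log2 fold, with 0 and 126 RNA reads over 441 in the input. Its replicates disagreed, with folds of 0.0292 and 0.250. The region chr4:100821875-100822274 had 0 and 4 RNA reads over 153, folds of 0.0798 and 0.0989 that the pseudocount largely sets. The region chr7:65647825-65648224 had 189 and 142 RNA reads over 1063, folds of 0.158 and 0.117. It was low in both replicates at good depth, a mean log2 fold of -2.87 ± 0.30 (SD, n = 2; adjusted p = 6.9e-05, limma). The region was picked for its low fold, so this p-value is not independent support.

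Among members with at least 100 input reads, the 3 whose replicates differed most had almost no reads in replicate 2. The region chr5:33086375-33086774 had 263 and 0 RNA reads over 159 in the input. The region chr3:9568775-9569174 had 175 and 0 over 103. The region chr14:28139225-28139624 had 151 and 3 over 131. In replicate 1 all 3 stood near their input, with folds of 1.35, 1.36 and 0.962, and none passed the limma test (adjusted p from 0.273 to 0.479).

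Replicates were closer at higher input. The members were split by the input quintiles of all captured regions, holding 764, 820, 767, 755 and 513 members from lowest to highest. Among members with reads in both, 38.8% differed over 2-fold between replicates in the lowest quintile, then 21.5%, 10.7%, 5.31% and 1.95%. Spearman rho between replicates was 0.436, 0.597, 0.701, 0.744 and 0.909 in the same order.

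The active share did not follow input in a line. From the lowest quintile up, 69 of 764 members (9.03%, 7.20 to 11.3), 82 of 820, 68 of 767 (8.87%, 7.05 to 11.1) and 49 of 755 (6.49%, 4.94 to 8.48) were active. In the highest, 72 of 513 were (14.0%, 11.3 to 17.3). The median log2 fold was flat across them, -0.29, -0.23, -0.22, -0.27 and -0.25. The highest quintile thus had the highest active share without a higher median. Spearman rho of input with log2 fold was 0.019 over all members.

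**Figure D3:**
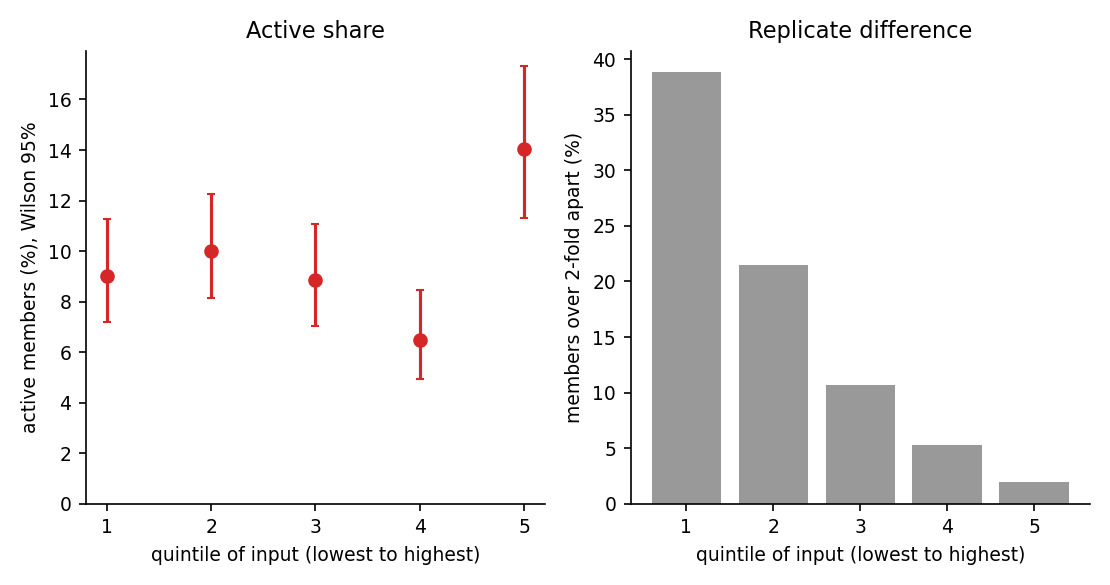
Left, percent of isolated PolII enhancers called active in each quintile of input, with Wilson 95% intervals; right, percent of members with reads in both replicates whose RNA differed over 2-fold. The active share is 14.0% in the highest quintile and lower in the other 4, down to 6.49%, while disagreement falls from 38.8% to 1.95%.

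Isolated and clustered PolII enhancers had nearly the same reporter levels. The comparison set was the 3952 clustered regions of the same category, with no captured promoter start within 5000 bp but another Enh start within 12.5 kb. The median log2 fold of isolated members was -0.23 in replicate 1 and -0.21 in replicate 2, and that of clustered ones -0.22 in both. The difference, isolated minus clustered, was -0.011 in replicate 1 and 0.0035 in replicate 2, a mean of -0.0036 ± 0.010 (SD, n = 2). With 2 replicates an exact sign-flip test cannot give a two-sided p under 0.5, so this and the next 3 differences carry no test.

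Counts of active regions were also close. Of the clustered regions 331 were active, 8.38% (7.55 to 9.28), beside 9.39% (8.49 to 10.4) of the isolated ones, and 53 were strongly active, 1.34% (1.03 to 1.75), beside 1.19%. The intervals overlap at both thresholds. By input quintile the isolated share was the higher in the lower 3 quintiles (for example 9.03% against 8.06% in the lowest) and the lower in the last 2 (6.49% and 14.0% against 8.86% and 14.2%).

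Isolated regions without PolII in their name were less active. Under the same spacing rule there were 1505 regions of Enh_K4me1_K27ac, with a median of 269 input reads beside 270 for the members. Their median log2 fold was -0.35 in both replicates, so the members lay 0.12 higher in replicate 1 and 0.14 in replicate 2, a mean of 0.13 ± 0.01 (SD, n = 2). Of them 72 were active, 4.78% (3.82 to 5.98), an interval that does not reach the 8.49% lower bound of the members. Strong activity was seen in 8, 0.532% (0.270 to 1.05), beside 1.19% (0.883 to 1.60), where the intervals overlap. In every input quintile the active share of members was the higher one, 9.03% against 3.46% in the lowest and 14.0% against 7.23% in the highest.

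Random regions were lower still. The members' median lay 0.38 above that of Random in replicate 1 and 0.35 in replicate 2, a mean of 0.36 ± 0.02 (SD, n = 2). Of the 478 Random regions 6 were active, 1.26% (0.577 to 2.71), and 0 of 478 were strongly active, so a share as high as 0.628% (3 counts), or 0.797% by the Wilson interval, remains possible. The 29 PolII regions within 5000 bp of a captured promoter start had higher medians than the members, -0.05 and -0.12, but 2 of 29 active regions (6.90%, 1.91 to 22.0) leave a wide interval.

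**Figure D4:**
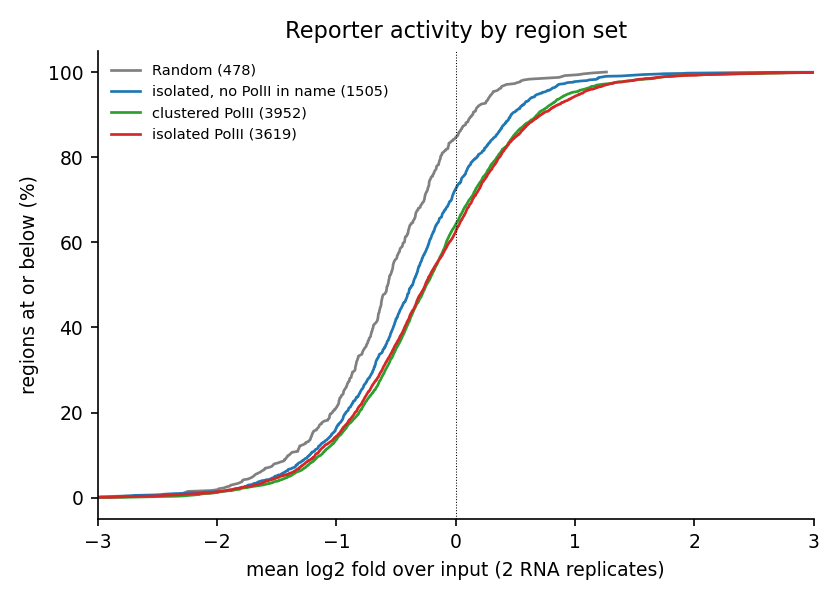
Cumulative percent of regions (y axis) by mean log2 fold over input (x axis, 2 RNA replicates) for isolated PolII enhancers, clustered PolII enhancers, isolated enhancers without PolII in the name and Random regions. The first pair of curves nearly coincide, with medians of -0.26 and -0.24, and the other curves lie to their left, at -0.36 and -0.57.

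How far a member stood from the next captured enhancer did not order its activity. In 5 bins of that distance, from 12525 to 18750 bp up to 104125 to 5491200 bp, the active share was 9.37%, 8.71%, 9.003%, 10.9% and 8.99%, each with an interval that includes 9.39%. Spearman rho between distance and log2 fold was 0.011. The 3 members farthest away were unlike each other. The region chr16:70327025-70327424, 5491200 bp away, had folds of 0.678 and 0.725. The region chr4:69992275-69992674 is among the 12 above. The region chr5:15975725-15976124, 4532900 bp away, had folds of 1.42 and 2.09.

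The active share of isolated members was higher at short distance to a captured promoter start. The log2 fold hardly went with that distance, with a Spearman rho of -0.043 over all members. The distance limits were chosen after the values had been seen. Of 61 members from 5000 to 10000 bp away 11 were active, 18.0% (10.4 to 29.5). The share was 13.4% (8.74 to 19.95) of 142 members out to 25000 bp, 11.2% (7.76 to 15.9) of 232 out to 50000 bp and 9.86% (7.17 to 13.4) of 355 out to 100000 bp. Beyond that it was 8.64% (7.45 to 10.0045) of 1863 members out to 1000000 bp and 9.11% (7.45 to 11.1) of 966 farther away. Neighbouring intervals overlap at each step.

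Of members within 25000 bp, 30 of 203 were active, 14.8% (10.6 to 20.3), against 310 of 3416 beyond, 9.07% (8.16 to 10.1). The difference was 5.70 percentage points. In replicate 1 alone the shares were 23.2% and 14.0%, and in replicate 2 22.2% and 15.8%. The medians moved less: -0.16 and -0.18 in the near members, -0.23 and -0.22 in the others. Median input was 291 reads near and 267.5 beyond, and within 5 bins of input the difference was 5.25 percentage points. Strong activity was seen in 3 of 203 near members (1.48%) and 40 of 3416 others (1.17%), too few near members to compare.

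The same distance split gave no such difference in the other sets. Of clustered PolII regions 6.60% (3.897 to 10.96) of 197 near and 8.47% (7.62 to 9.40) of 3755 others were active. Of isolated regions without PolII in the name 2 of 88 near (2.27%, 0.625 to 7.91) and 4.94% (3.93 to 6.20) of 1417 others were. The difference between these sets was not tested.

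**Figure D5:**
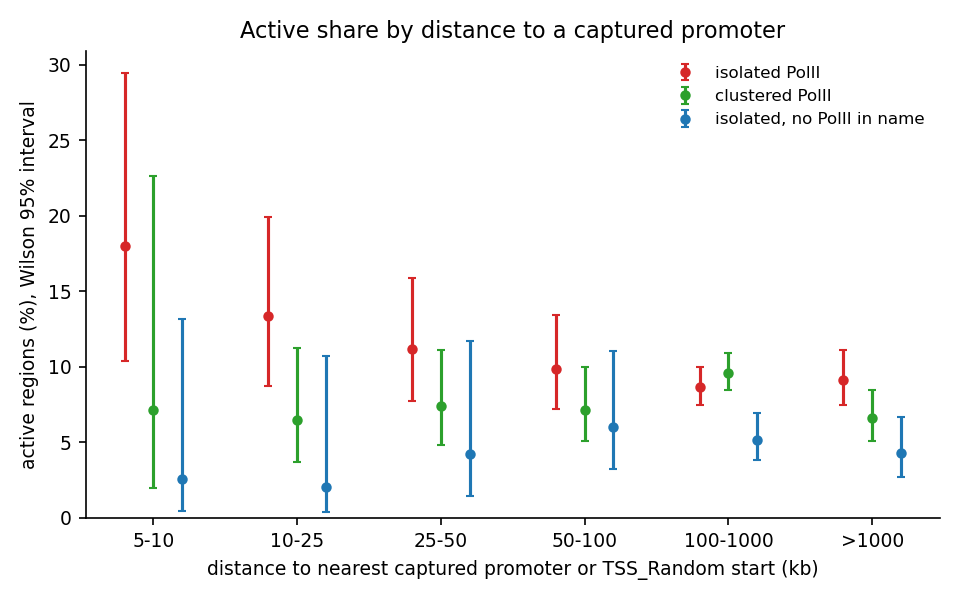
Percent of regions called active (y axis, with Wilson 95% intervals) by distance to the nearest captured promoter or TSS_Random start in kb (x axis), for isolated PolII enhancers, clustered PolII enhancers and isolated enhancers without PolII in the name. The isolated PolII series goes from 18.0% at the shortest distance to about the 9.39% of all members, and the other sets show no such order.

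Of the 203 near members 31 had an active nearest promoter or TSS_Random region, and 2 of these 31 were active (6.45%, 1.79 to 20.7), against 28 of 172 (16.3%, 11.5 to 22.5) where it was not active. The intervals overlap, and the gap came from replicate 2: the shares were 22.6% and 23.3% in replicate 1 alone, and 9.68% and 24.4% in replicate 2 alone. Spearman rho between the log2 folds of member and nearest promoter was 0.00016 over the 203.

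The log2 folds of members hardly went with those of their nearest captured enhancer, while active calls did to some degree. Spearman rho between their log2 folds was 0.019 over 3619 members, and 0.295 over 831 clustered regions up to 1000 bp from the next Enh start. Clustered regions farther apart were as low as the members, with 0.034 at 1000 to 2000 bp, -0.044 at 2000 to 5000 bp and 0.033 beyond. Of 278 members whose nearest Enh region was active, 39 were active, 14.0% (10.4 to 18.6), against 301 of 3341 (9.01%, 8.08 to 10.03) where it was not. These intervals do not overlap, and the difference was not tested. With calls of member and neighbour taken from 1 replicate alone, this difference of 5.02 percentage points was 3.25 in replicate 2 and 3.26 in replicate 1. The nearest region was of the PolII category for 2578 members (8.65% active, 7.63 to 9.80), of Enh_K4me1_K27ac for 852 (11.4%, 9.42 to 13.7) and of Enh_K4me1 for 189 (10.6%, 6.96 to 15.8). Some members are each other's nearest region and enter such counts from both sides.

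Active members were found on every chromosome that held members. Shares ran from 4.41% on chromosome 14 (6 of 136, interval 2.04 to 9.29) to 19.5% on chromosome X (8 of 41, 10.2 to 34.0). Of the 20 intervals, that of chromosome X lies above the 9.39% of all members and that of chromosome 14 below it. Differences between chromosomes were not tested. The chromosomes with the most members, 2, 11 and 1, stood at 12.2% of 270, 10.4% of 269 and 8.88% of 259. Of the 43 strong members 6 were on chromosome 2, and chromosomes 3 and 7 held none of them, with 190 and 184 members.

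Regions on either side of the rule's limits were chosen by distance alone. The members closest to the 12.5 kb limit were chr6:120517800-120518199, with folds of 0.951 and 1.06, and chr6:120530325-120530724, with 1.13 and 0.892; they are each other's nearest Enh region, 12525 bp apart. The regions that narrowly missed it were chr5:123169275-123169674, at 12.5 kb with folds of 0.159 and 0.810, and chr4:48025225-48025624, at 12476 bp with 0.674 and 0.479. None of these 4 was active.

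At the promoter limit, the closest members were chr4:119411225-119411624, 5036 bp from a captured start with folds of 3.81 and 2.83, and chr7:4615575-4615974, at 5049 bp with 0.892 and 0.724. The regions that narrowly missed it were chr17:35347025-35347424, at 4929 bp with 0.966 and 1.22, and chr5:116479225-116479624, at 4908 bp with 1.24 and 1.52. Of these 4 the chromosome 4 region was the active one, on 99 input reads.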

How the data were processed

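The rule for members uses category and position only, but the rule and the lists were set with earlier results of these data known. Each RNA replicate has its own deposited table of 12897 regions with RNA and input FPKM from the authors. The deposited fold, a ratio of both FPKM values each plus 1, was recomputed (largest difference 4.8e-14), and the authors' active class was read as deposited. Both tables carry the same input. Bowtie2, TopHat2 and Bowtie 1.2.2 are named without roles in the submitters' processing notes. What counted the reads is not stated. All 12881 regions of 400 bp came out as whole reads (100% of FPKM values, tolerance 0.1 reads). These reads describe precision only, and no count model was fitted. Over all regions the libraries held 8999732, 9583168 and 7199798 reads.

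limma 3.58.1 in R 4.3.3 was fitted to all regions on log2 of the fold with a pseudocount of 1 FPKM. Each replicate was centred on the Random median, with the prior variance as a trend of input and not of the tested fold. The code was run on simulated data, where regions not raised lay at the input level and the input had no error. That run cannot show how often real Random regions are called. Regions were named by rule: the 12 most active members; the 3 lowest and the 3 most discordant with at least 100 input reads; the 3 active ones of most input; the 3 most isolated; and 2 on each side of each limit. Wilson intervals used scipy 1.17.1. Groups came from the sample titles. The other 140 samples and a genome of the build were not used here, so no sequence is shown.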

Additional observations from a re-analysis of the deposited data

How the results depend on the processing

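No paired analysis was possible because both RNA replicates are set against the same single input, which has no replicate number. limma was not run without either replicate, since 1 library leaves no residual degrees of freedom. The 340 active members became 152 at a fold of 2 (4.20%, with 3.49% of all regions) and 43 at 3. They became 115 with the authors' deposited class and 991 over the Random median (27.4%, with 26.9% of all regions). When either replicate was left out, 526 to 585 were active. The limma count of 847 higher became 449 without a trend, 400 centred on all regions and 214 without centring. The 153 lower became 48, 354 and 458 in the same order. With a window of 25000 bp, 98 of 2436 members were lower (4.02%, with 3.99% of all regions). With the trend on the mean log2 fold 0 were lower, where at limma's main setting 301 members lay below at an unadjusted p under 0.05. The difference to clustered regions was 0.0076 with a window of 25000 bp and 0.012 with 5000 bp (-0.011 to 0.0035 when either replicate was left out). That to promoter-close regions was -0.0699 with a promoter window of 10000 bp. That to isolated Enh_K4me1_K27ac was 0.15 with 0.1 FPKM, 0.12 with at least 100 input reads and 0.15 with 25000 bp, and that to Random 0.29 within 5 input bins. The near minus far difference in active share was 8.79 points with near as 10000 bp, 3.42 with the authors' class, 2.86 at a fold of 2, and 6.36 to 9.13 when either replicate was left out. The difference by an active nearest enhancer was 3.97 points with the authors' class, 4.03 at a fold of 2, 5.03 with 0.1 FPKM, 6.62 with at least 100 input reads, 5.85 within input bins, and 3.25 to 3.26 when either replicate was left out. These last 2 differences, their alternatives and the fold of 3 were chosen after the data were seen. For these results 46 alternatives stayed within the spread between replicates, or within 1.5 times the count, and 32 did not. For the near minus far and nearest enhancer differences, that spread was the SD of single-replicate differences, 1.96 and 0.0068 points. It is not the spread of calls that ask both replicates, so for these results the tally says little about stability. The cause of the other changes was not tested. Depth limits single members: 561 had under 100 input reads.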
